A study of Mus musculus with 30 samples.

Results

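The genes described here handle phosphate, vitamin D and calcium in the kidney: Kl, Cyp27b1, Cyp24a1, Vdr, Calb1, S100g and Slc34a1. Every probe set whose array annotation gives 1 of these 7 symbols was taken, whatever its signal, which gave 11 probe sets of 22626 and 7 genes of 12393. The samples were total RNA from kidney, brain, stomach, liver and salivary tissue of neonatal mice, either wild-type or null for ERRγ, an orphan nuclear receptor encoded by Esrrg, each hybridized to an Affymetrix MOE430A array. There were 10 groups of 3 arrays and 30 arrays in total, a number that limits precision. The mice shared a mixed SV129/C57BL/6 background, standard chow and no treatment, and the labels give their sex as unknown. Neither the null allele nor the number of animals behind the 3 arrays of each group is described in the labels, so the p-values reflect only the spread of these arrays, part of which may be technical. All values are log2 MAS5 signals, so a difference of 1 is a doubling of signal.

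Klotho, the product of Kl, is a membrane protein of the distal tubule that makes FGF receptors responsive to FGF23, a phosphate-lowering hormone made in bone. FGF23 signalling through Klotho reduces uptake of phosphate by the proximal tubule and restrains Cyp27b1, the enzyme that makes active vitamin D, while it raises Cyp24a1, the enzyme that breaks active vitamin D down. Active vitamin D acts through its receptor, encoded by Vdr, which binds DNA with a retinoid X receptor and among its known targets has Cyp24a1 and the calcium-binding proteins of Calb1 and S100g.

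In null kidney Kl fell, Cyp27b1 rose, and Calb1 rose at the dimmer of its probe sets. Kl was 2.38-fold lower, with a difference of -1.25 ± 0.15 on the log2 scale (SE, 3 null minus 3 wild-type arrays). Cyp27b1 was 3.23-fold higher, with a difference of 1.69 ± 0.32, and the Calb1 probe set 1.89-fold higher, with a difference of 0.92 ± 0.14. The phosphate transporter gene Slc34a1 was lower in each null array than in each wild-type array but did not pass the test, and neither did Cyp24a1, Vdr or S100g. Of the 11 probe sets 9 were bright enough in kidney to be tested, 3 of them passed and 6 did not. Among all probe sets tested in kidney 0.781% passed, 106 of 13577, of which 56 (0.412%) were higher and 50 (0.368%) lower in null arrays. With array medians made equal the split of all calls was 54 higher and 106 lower.

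The promoters of 5 members were found in the RefSeq promoter table of assembly GRCm38.p6, read here as the 250 bases before each gene's start. Those of Kl, which fell, of Cyp27b1, which rose, and of S100g, the only member promoter of the 5 with a match to the ERR half-site, are shown 5′ to 3′ on the strand of the gene. Capitals mark matches on either strand to the ERR half-site AAGGTCA, which estrogen-related receptors bind, or to a hexamer of the kind the vitamin D receptor binds (NGNTCA with A or G as the first letter and G or T before TCA, a form that AAGGTCA also contains). The windows are chr5:150952357-150952606 for Kl (plus strand), chr10:127047996-127048245 for Cyp27b1 (plus strand) and chrX:162964600-162964849 for S100g (minus strand).
Kl: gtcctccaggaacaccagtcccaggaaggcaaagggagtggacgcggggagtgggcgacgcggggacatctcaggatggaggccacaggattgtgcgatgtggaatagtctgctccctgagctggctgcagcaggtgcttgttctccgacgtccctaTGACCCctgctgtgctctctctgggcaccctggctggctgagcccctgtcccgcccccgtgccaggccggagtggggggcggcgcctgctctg
Cyp27b1: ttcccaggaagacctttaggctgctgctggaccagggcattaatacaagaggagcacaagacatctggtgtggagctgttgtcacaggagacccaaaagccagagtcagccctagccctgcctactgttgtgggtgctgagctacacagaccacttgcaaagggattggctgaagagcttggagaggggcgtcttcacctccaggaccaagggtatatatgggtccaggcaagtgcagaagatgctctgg
S100g: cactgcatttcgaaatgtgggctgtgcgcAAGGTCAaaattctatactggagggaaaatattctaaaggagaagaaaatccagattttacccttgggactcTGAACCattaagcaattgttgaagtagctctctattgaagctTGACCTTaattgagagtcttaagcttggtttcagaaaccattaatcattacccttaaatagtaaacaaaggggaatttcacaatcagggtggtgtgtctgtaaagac

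The ERR half-site was matched in the S100g window at 221 bases before the start on the gene's strand and at 107 bases before it on the opposite strand. It was present in 4.08% of all 32851 promoters of the same length. A pair of the hexamers in tandem, 3 bases apart, which is the element of the vitamin D receptor with its partner (DR3), was in none of the 5 windows and in 0.0396% of all promoters. A single hexamer was in 38.6% of all promoters. It was matched in the windows of Kl at 93 bases before the start, Vdr at 91, Slc34a1 at 17 and S100g at 220, 149 and 107, and not in that of Cyp27b1. S100g, whose window holds both ERR matches, showed no difference between genotypes that passed the test, as given below in its place among the vitamin D targets. A match is a run of letters and shows no binding.

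Kl, the co-receptor, was read by a bright and a dim probe set. The bright one, 1423400_at, read 9.11, 9.15 and 8.81 in wild-type replicates 1 to 3 and 7.67, 8.04 and 7.60 in the null replicates. The groups did not overlap, and the highest null array lay below the lowest wild-type array. Their means were 9.02 ± 0.19 and 7.77 ± 0.24 (SD, n = 3), and the difference of -1.25 had a 95% interval of -1.58 to -0.93 (limma, Benjamini-Hochberg adjusted p = 0.0111). By p-value it ranked 7 of the 13577 probe sets tested in kidney, and by size it was the fall of rank 16. With 1 of the 6 arrays left out the difference lay between -1.39 and -1.17. The call was lost without wild-type replicate 1 (adjusted p = 0.0541) and without wild-type replicate 2 (adjusted p = 0.0779), and held without any of the other 4 arrays. It was also lost in a single fit of all 30 arrays, which share 1 estimate of the spread (adjusted p = 0.544).

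The dim Kl probe set, 1451892_at, read 2.63, 3.10 and 4.44 in wild-type replicates 1 to 3 and 2.28, 3.19 and 2.35 in the null replicates of kidney. These values overlapped and lay under the kidney filter level of 5.39, below which a mean over the 6 arrays was not tested. Over the 30 arrays the 2 Kl probe sets correlated with r = 0.28, so the fall rests on 1 probe set.

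Fgf23 itself is a gene of bone, and its probe set lay under the filter level in kidney, with wild-type arrays at 4.56 ± 0.03 and null arrays at 4.77 ± 0.03 (SD, n = 3). Of 22 genes of the FGF23 axis and phosphate handling that were on the array, 16 were tested in kidney and 0 passed in limma (2 at an unadjusted p under 0.05), with 1 higher and 1 lower in null arrays without overlap. Of all probe sets tested in kidney 0.781% passed, 14.8% had an unadjusted p under 0.05 and 20% stood without overlap. The list's median difference was 0.04, beside 0.0133 over all tested probe sets. The largest differences by size were those of Pdzk1, a scaffold protein that anchors phosphate transporters at the brush border (-0.47, limma adjusted p = 0.0869), Xpr1, a phosphate exporter (0.39, limma adjusted p = 0.407), and Slc20a2, a sodium-phosphate transporter (0.35, limma adjusted p = 0.438). The 4 FGF receptor genes, named after their values were seen, differed by 0.25 (Fgfr1, limma adjusted p = 0.534), 0.28 (Fgfr2, adjusted p = 0.310), -0.10 (Fgfr3, adjusted p = 0.803) and -0.11 (Fgfr4, adjusted p = 0.786), and of these Fgfr2 was the 1 gene higher without overlap.

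Slc34a1 encodes the main sodium-phosphate cotransporter of the proximal tubule, the step that FGF23 lowers. It read 10.02, 9.98 and 9.91 in wild-type replicates 1 to 3 and 8.90, 9.55 and 9.27 in the null replicates of kidney. All 3 null arrays were below all 3 wild-type arrays, and the null arrays were spread more widely. Means were 9.97 ± 0.06 and 9.24 ± 0.33 (SD, n = 3). The difference of -0.73 ± 0.15 (SE) had a 95% interval of -1.06 to -0.40 and missed the threshold (limma adjusted p = 0.0581). It passed without null replicate 2 (-0.89, limma adjusted p = 0.0132), with Xist as a covariate (-0.73, adjusted p = 0.0284) and with equal array medians (-0.79, adjusted p = 0.0434). With 1 of the other 5 arrays left out it did not pass, and the adjusted p reached 0.199.

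**Figure D1:**
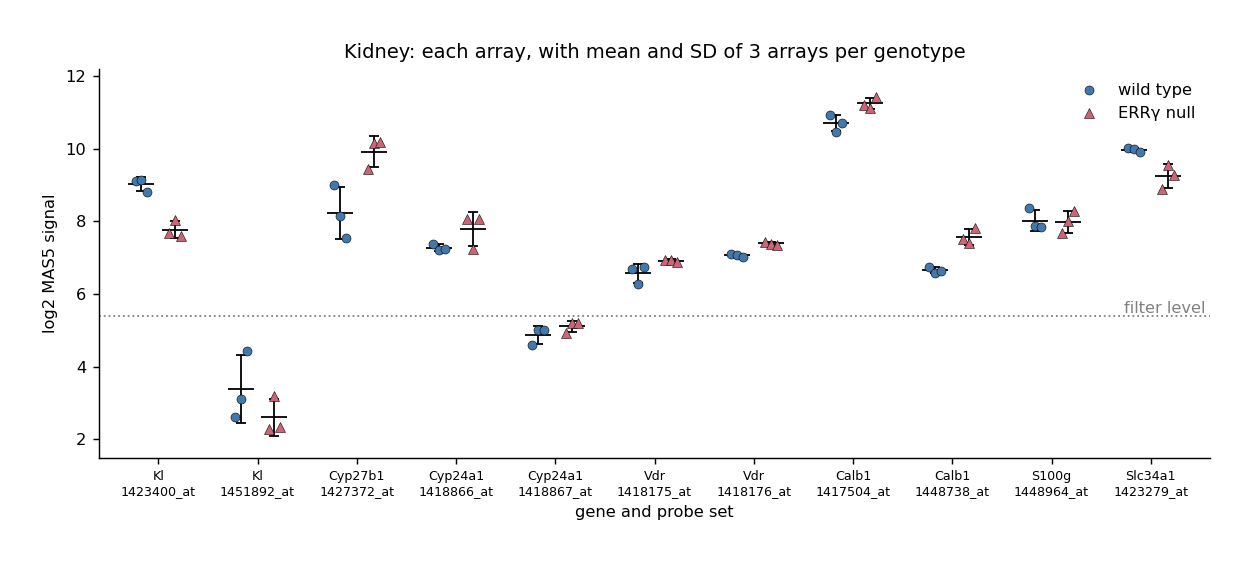
Log2 MAS5 signal of the 11 probe sets (horizontal axis) in each of 3 wild-type (circles) and 3 ERRγ null (triangles) kidney arrays, with the mean and SD of 3 arrays and a dotted line at the filter level of 5.39. Null arrays lie apart from wild-type arrays for Kl 1423400_at (7.60 to 8.04 against 8.81 to 9.15) and Cyp27b1 (9.44 to 10.17 against 7.55 to 8.99), and overlap for S100g.

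Cyp27b1, the vitamin D 1-alpha-hydroxylase, read 8.99, 8.15 and 7.55 in wild-type replicates 1 to 3 and 9.44, 10.15 and 10.17 in the null replicates of kidney. All null arrays were above all wild-type arrays, but wild-type replicate 1 and null replicate 1 came near each other. Means were 8.23 ± 0.72 and 9.92 ± 0.42 (SD, n = 3), and the difference of 1.69 had a 95% interval of 0.98 to 2.40 (limma adjusted p = 0.0476). It was the rise of rank 8 by size in kidney and ranked 97 by p-value. The call lies close to the threshold: the difference stayed between 1.35 and 2.07 with 1 array left out, but it passed only without wild-type replicate 1 (adjusted p = 0.0341). Without each of the other 5 arrays the adjusted p lay between 0.0706 and 0.166.

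Cyp24a1, the vitamin D 24-hydroxylase, read 7.38, 7.21 and 7.23 in wild-type replicates 1 to 3 and 8.06, 7.25 and 8.06 in the null replicates of kidney at its brighter probe set, 1418866_at. Null replicates 1 and 3 were above all wild-type arrays, and null replicate 2 lay among them. The difference of 0.52 ± 0.20 (SE) had a 95% interval of 0.06 to 0.97 and did not pass (limma adjusted p = 0.279). Without null replicate 2 it was 0.79 and passed (limma adjusted p = 0.0225). The dimmer probe set, 1418867_at, was under the filter level, at 4.60, 5.02 and 5.02 in wild-type replicates 1 to 3 and 4.92, 5.21 and 5.19 in the null replicates, and these overlapped.

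Vdr, the receptor, had 2 probe sets that correlated over the 30 arrays with r = 0.81. 1418175_at read 6.69, 6.27 and 6.75 in wild-type replicates 1 to 3 and 6.94, 6.94 and 6.87 in the null replicates of kidney. 1418176_at read 7.10, 7.08 and 7.01 in wild-type replicates 1 to 3 and 7.44, 7.38 and 7.35 in the null replicates of kidney. Both were higher in all null arrays without overlap, by 0.35 ± 0.15 and 0.33 ± 0.11 (SE), and neither passed (limma adjusted p = 0.334 and 0.229). The 95% intervals, 0.00252 to 0.69 and 0.07 to 0.58, leave room for a difference near 0 and for one of about the size of that of Cyp24a1.

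Calb1 encodes calbindin-D28k, the calcium carrier of distal tubule cells. Its bright probe set, 1417504_at, read 10.92, 10.47 and 10.70 in wild-type replicates 1 to 3 and 11.21, 11.11 and 11.42 in the null replicates of kidney. The dimmer one, 1448738_at, read 6.74, 6.59 and 6.63 in wild-type replicates 1 to 3 and 7.51, 7.39 and 7.82 in the null replicates of kidney. Both were higher in every null array without overlap, and they correlated over the 30 arrays with r = 0.88. The dimmer probe set passed, with a difference of 0.92 and a 95% interval of 0.60 to 1.24 (limma adjusted p = 0.0253). The bright one, at 0.55 ± 0.12 (SE; 95% interval 0.27 to 0.83), did not (limma adjusted p = 0.0794). With 1 array left out the dimmer probe set's difference lay between 0.80 and 1.01, but it passed only without null replicate 2 (adjusted p = 0.0146). Without each of the other 5 arrays the adjusted p lay between 0.0686 and 0.119. The call was also lost with no filter (adjusted p = 0.0731), without the mean-variance trend (adjusted p = 0.0618), with the gap between 3′ and 5′ Gapdh control probe sets, a measure of RNA integrity, as a covariate (adjusted p = 0.0522) and in the fit of all 30 arrays (adjusted p = 0.774).

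S100g encodes calbindin-D9k, the smaller vitamin D-dependent calcium carrier. It read 8.36, 7.87 and 7.83 in wild-type replicates 1 to 3 and 7.67, 8.02 and 8.28 in the null replicates of kidney, and the groups overlapped throughout. The difference was -0.03 ± 0.19 (SE, limma adjusted p = 0.961). Its 95% interval of -0.44 to 0.38 holds differences of the size seen for Vdr, and does not reach the 0.92 of the Calb1 probe set that passed.

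**Figure D2:**
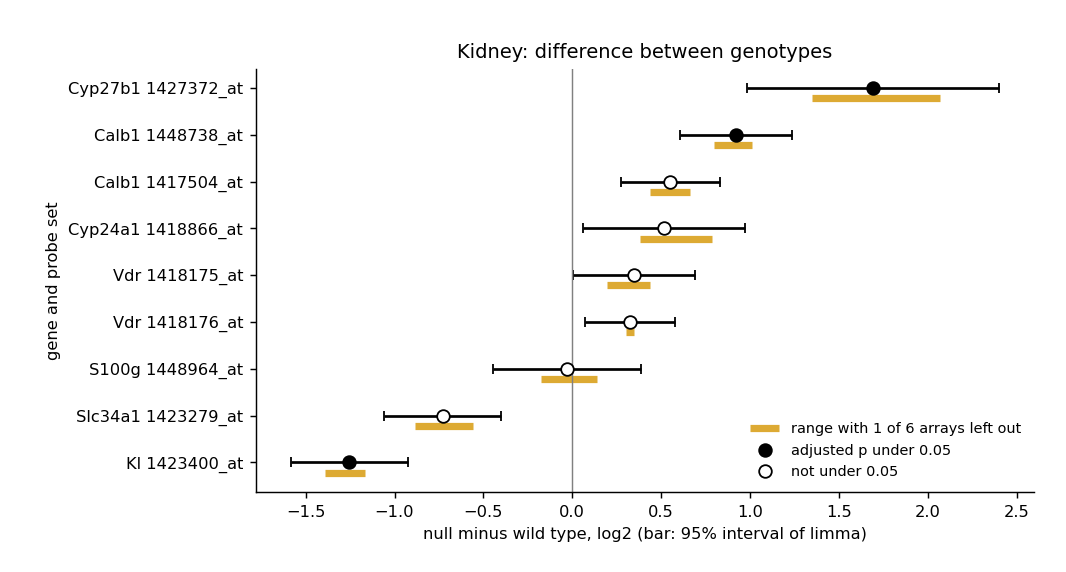
Null minus wild-type difference in kidney on the log2 scale for the 9 tested probe sets, with the 95% interval of limma (black bars) and the range with 1 of 6 arrays left out (ochre bars); filled points have adjusted p under 0.05. Cyp27b1 (1.69) and Calb1 1448738_at (0.92) lie to the right of 0, Kl (-1.25) to the left, and S100g (-0.03) at 0.

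In all, 7 of the 9 tested probe sets had null arrays that did not overlap the wild-type arrays, 5 higher and 2 lower, where 20% of all tested probe sets did. An unadjusted p under 0.05 was reached by 8 of them, and by 14.8% of all tested probe sets. A two-sided exact permutation test of 3 against 3 arrays cannot go below p = 0.1. Since the members and their number are few and were chosen with earlier results known, these counts are a description.

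No tested gene of the steps that feed this pathway passed, where 0.781% of all probe sets tested in kidney did. An unadjusted p under 0.05 was reached by 14.8% of all tested probe sets, and 20% stood without overlap. These shares stand beside the counts of this list and of those below, and 0 calls in a short list lies near the first. Of 16 genes of vitamin D synthesis, uptake and receptor partners on the array, 14 were tested and 0 passed in limma (5 at an unadjusted p under 0.05), with a median difference of -0.09. Without overlap stood 1 higher, Cyp3a11, a drug- and steroid-metabolising enzyme that can break down vitamin D (1.17 ± 0.40, SE; limma adjusted p = 0.222), and 6 lower. The 6 included Dhcr7, which uses up the precursor of vitamin D in cholesterol synthesis (-0.52, limma adjusted p = 0.223), and 4 genes of the endocytic uptake of filtered vitamin D-binding protein. These were Dab2 (-0.42, limma adjusted p = 0.0977), Cubn (-0.36, adjusted p = 0.256), Amn (-0.33, adjusted p = 0.330) and Lrp2 (-0.22, adjusted p = 0.396), of which the last 3 were chosen after their values were seen. The remaining 1 was Baz1b (-0.24, adjusted p = 0.376), a chromatin factor, also chosen afterwards. As log2 of summed linear signals, the level of the 16 genes was 12.51 to 12.56 in wild-type and 12.30 to 12.41 in null arrays. These sums were lower in null arrays without overlap, while those of the phosphate and calcium lists overlapped.

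Of 20 genes of calcium transport and sensing on the array, 14 were tested and 0 passed in limma (4 at an unadjusted p under 0.05), with a median difference of 0.11. The largest differences were those of Trpm7, a magnesium and calcium channel (0.58, limma adjusted p = 0.330), Slc8a1, the sodium-calcium exchanger through which distal tubule cells pass calcium to the blood (0.51, limma adjusted p = 0.161), and Pth1r, the receptor of parathyroid hormone (-0.45, limma adjusted p = 0.120). Null arrays of Slc8a1 were all higher and those of Pth1r all lower than the wild-type arrays. Parathyroid hormone raises Cyp27b1 and lowers Slc34a1 protein at the brush border.

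Markers of the nephron segments that hold these genes did not all move one way. Of 24 proximal tubule markers 4 fell and 1 rose: Slc13a3, a dicarboxylate transporter (-1.61, limma adjusted p = 0.0111), Miox, an inositol oxygenase (-1.71, adjusted p = 0.0126), Slc17a3, an organic anion transporter (-0.86, adjusted p = 0.0360), and Gatm, the first enzyme of creatine synthesis (-0.75, adjusted p = 0.0138), fell, and Pck1, an enzyme of gluconeogenesis, rose (1.01, adjusted p = 0.0437). Without overlap stood 10 lower and 4 higher, 13 of the 24 had an unadjusted p under 0.05, and the list median was -0.18. The summed level of the 24 markers, as log2 of summed linear signals, was 13.73 to 13.94 in wild-type and 13.59 to 13.78 in null arrays, and these overlapped. Of 8 tested thick ascending limb markers 3 fell, with a list median of -0.64: the potassium channel gene Kcnj1 (-1.08, limma adjusted p = 0.0126), the urinary protein gene Umod (-1.02, adjusted p = 0.0326) and the tight junction gene Cldn10 (-0.86, adjusted p = 0.0184). Not all markers of this list were lower in null arrays: 1 was higher and 4 were lower without overlap. The 1 higher was Irx1 (0.42, limma adjusted p = 0.200), and Slc12a1 differed by 0.19 with overlap (adjusted p = 0.554). The summed level of the thick ascending limb list was 11.98 to 12.29 in wild-type and 11.74 to 11.82 in null arrays.

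Of 8 tested markers of the distal convoluted and connecting tubule, where Kl and Calb1 are made, 1 passed, Sgk1, a kinase induced by aldosterone and other steroids, which rose (1.02, limma adjusted p = 0.0326). The remaining 1 on the array, Klk1, tissue kallikrein of the connecting tubule, was not tested because its low null values brought its mean over the 6 arrays under the filter level. It stood between 7.16 and 7.95 in wild-type and between 0.71 and 4.38 in null arrays. With no filter its difference was -5.09 ± 0.79 (SE, limma adjusted p = 0.0804), and its probe set may also read near-identical kallikrein genes. Slc12a3, the thiazide-sensitive salt transporter, chosen after its values were seen, differed by -0.23 (adjusted p = 0.592). The summed level of this list was 11.92 to 12.12 in wild-type and 12.13 to 12.21 in null arrays, higher in null arrays without overlap. Without Sgk1, a sum taken after the values were seen, it was 11.69 to 11.88 in wild-type and 11.61 to 11.80 in null arrays, and these overlapped.

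Of 15 tested collecting duct markers 0 passed in limma (7 at an unadjusted p under 0.05), with 5 higher and 2 lower without overlap and a median of 0.20. The 2 lower were Hsd11b2, the enzyme that shields the mineralocorticoid receptor from glucocorticoids (-1.13, limma adjusted p = 0.0568), which had the largest difference of the list's tested genes, and Avpr2, the vasopressin receptor (-0.59, adjusted p = 0.116). The largest of the 5 higher was that of the water channel gene Aqp2 (0.89, limma adjusted p = 0.108). Atp6v1b1, a proton pump subunit of intercalated cells, lay under the filter level, at 5.08 to 5.93 in wild-type and 2.67 to 3.90 in null arrays (-2.16 with no filter, limma adjusted p = 0.105). Hsd11b2, Avpr2 and Atp6v1b1 were chosen after their values were seen. The summed level of the list was 11.31 to 11.46 in wild-type against 11.55 to 11.74 in null arrays. The part of these shifts in the differences of Kl, Calb1, Cyp27b1 and Slc34a1 was not tested, and in whole kidney fewer cells of a type and less RNA per cell cannot be told apart.

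**Figure D3:**
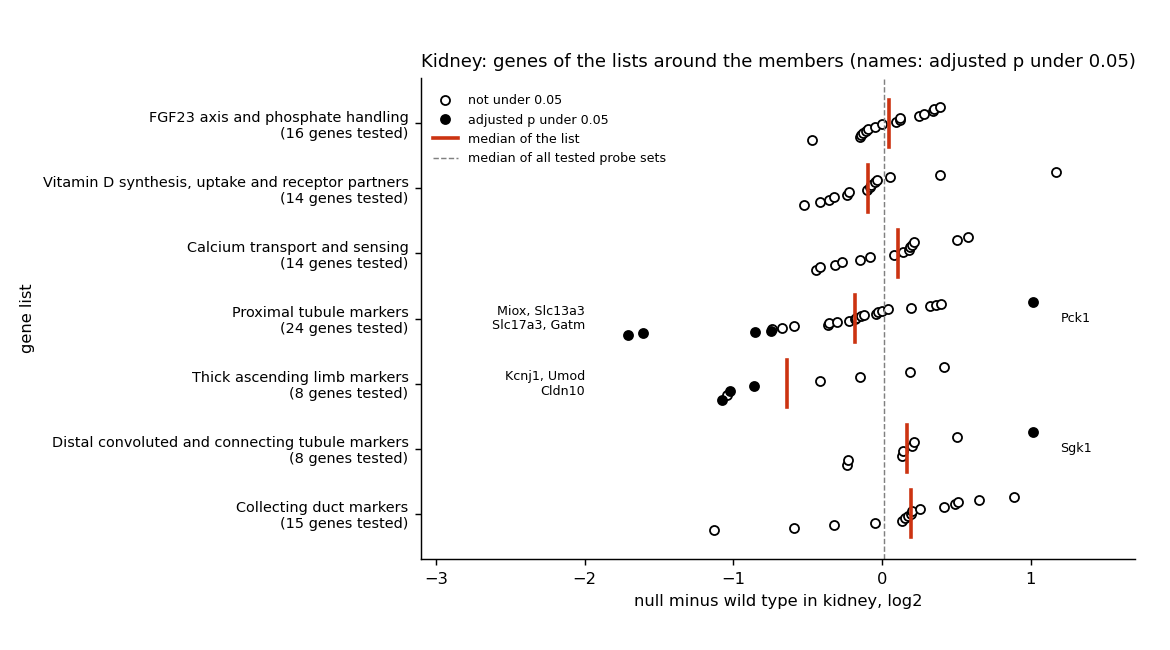
Null minus wild-type difference in kidney on the log2 scale for the tested genes of 7 lists (rows), with the list median in red and the median of all tested probe sets dashed; named, filled genes have adjusted p under 0.05. No gene of the phosphate, vitamin D and calcium lists is filled, while 5 of 24 proximal tubule and 3 of 8 thick limb markers are.

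The kidney arrays carried the markers of kidney: in wild-type arrays Umod stood at 10.75 ± 0.29 and Fbp1, a proximal tubule enzyme of gluconeogenesis, at 11.36 ± 0.13 (SD, n = 3). Of 11 adrenal markers on the array 6 lay under the filter level. The brightest, Star, had a mean of 6.28 over wild-type and 6.19 over null arrays, Cyp11a1 one of 1.25 and 1.26, and 0 of 5 tested adrenal markers passed in limma or had an unadjusted p under 0.05. Ucp1, the defining gene of brown fat, read 0.52 to 2.72 in the 6 kidney arrays, far under that level. In salivary tissue Ucp1 read 5.99, 4.04 and 12.14 in wild-type replicates 1 to 3 and 11.31, 12.75 and 11.02 in the null replicates. Its bearing on the comparisons with salivary tissue was not tested. Of 8 tested hepatocyte markers 1 passed, Fga, a fibrinogen chain (1.28, limma adjusted p = 0.0292), and the list median was 0.29. The 3 brightest did not pass: Ttr (-0.16, limma adjusted p = 0.712), Afp (-0.39, adjusted p = 0.408) and Alb (0.81, adjusted p = 0.364). The summed level of the list was 11.43 to 11.50 in wild-type and 11.00 to 11.70 in null arrays, and these overlapped. The gap between the Gapdh control probe sets was 2.67 ± 0.31 in wild-type kidney and 2.67 ± 0.17 in null kidney (SD, n = 3). Correlations between arrays of a group lay between 0.94 and 0.97 over all tissues, and no kidney array was left out.

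Xist, expressed from the inactive X chromosome, stood between 11.08 and 11.38 in 4 kidney arrays and between 6.49 and 6.65 in wild-type replicate 3 and null replicate 1. Among the arrays with high Xist, 2 per genotype, the null minus wild-type difference was -1.31 for Kl, 1.59 for Cyp27b1, 0.94 for Calb1 1448738_at and -0.59 for Slc34a1. Between the 2 arrays with low Xist, 1 per genotype, it was -1.14, 1.89, 0.88 and -1.01 for the same probe sets. The null and wild-type arrays of these 4 did not overlap, so the direction was bound to be the same in both subsets.

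Across tissues, kidney gave the highest signal of each gene: for every probe set tested there, all 6 kidney arrays read above all 24 other arrays. Those of Kl, Cyp27b1, Cyp24a1, Vdr and S100g, and 1448738_at of Calb1, passed the filter through kidney alone. Their excess there is thus partly set by the filter, and no count of them is given as a result. For the same reason, p-values for their steps from kidney to the next tissue are given as a description only. For orientation, 3.67% of 16690 probe sets were higher in wild-type kidney than in each of the other 4 tissues, and 21.6%, 28.9% and 17.7% were higher there than in salivary tissue, brain and stomach. Kl read between 1.71 and 4.64 in the 24 other arrays, with a median of 3.55. In wild-type tissue it was followed after kidney by salivary tissue, 5.16 lower (limma adjusted p = 4.25e-07), brain, stomach and liver, and neighbours in this order after kidney did not differ beyond their spread (adjusted p between 0.165 and 0.778).

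Cyp27b1 ran from 2.87 to 5.03 outside kidney with a median of 4.21, and stood 3.86 lower in salivary tissue than in kidney (wild-type arrays, limma adjusted p = 1.1e-06). Cyp24a1 at 1418866_at ran from 0.96 to 4.68, with salivary tissue 3.23 below kidney (limma adjusted p = 0.000398). For both genes the order after kidney was not resolved, with adjusted p between 0.357 and 0.914 for neighbours of Cyp27b1 and between 0.436 and 0.835 for those of Cyp24a1. Vdr stood lower in salivary tissue than in kidney by 1.66 at 1418175_at (limma adjusted p = 0.00818) and by 3.20 at 1418176_at (limma adjusted p = 4.65e-05). Its probe sets disagreed on the next step: salivary tissue was above stomach by 1.21 at the first (limma adjusted p = 0.0436) and by 0.17 at the second (limma adjusted p = 0.800).

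Calb1 was the member with a second tissue of high signal. In wild-type arrays 1417504_at read 10.70 ± 0.23 in kidney and 8.79 ± 0.02 in brain (SD, n = 3), where calbindin-D28k is known as a marker of Purkinje cells and interneurons. Kidney was above brain by 1.91 (limma adjusted p = 6.77e-05) and brain above salivary tissue by 3.93 (limma adjusted p = 2.48e-08). Salivary tissue, stomach and liver followed and were not resolved from each other as neighbours (adjusted p = 0.553 and 0.357). S100g had stomach as its second tissue, at 4.67 ± 0.26 against 8.02 in kidney, a step of 3.35 (limma adjusted p = 0.000252), and liver lay 3.32 below stomach (limma adjusted p = 0.000114). Slc34a1 stood 4.37 lower in brain than in kidney (limma adjusted p = 4.29e-10). It read between 4.57 and 6.33 in the 24 other arrays, and among its other neighbours only stomach was below liver, by 0.58 (limma adjusted p = 0.0415).

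**Figure D4:**
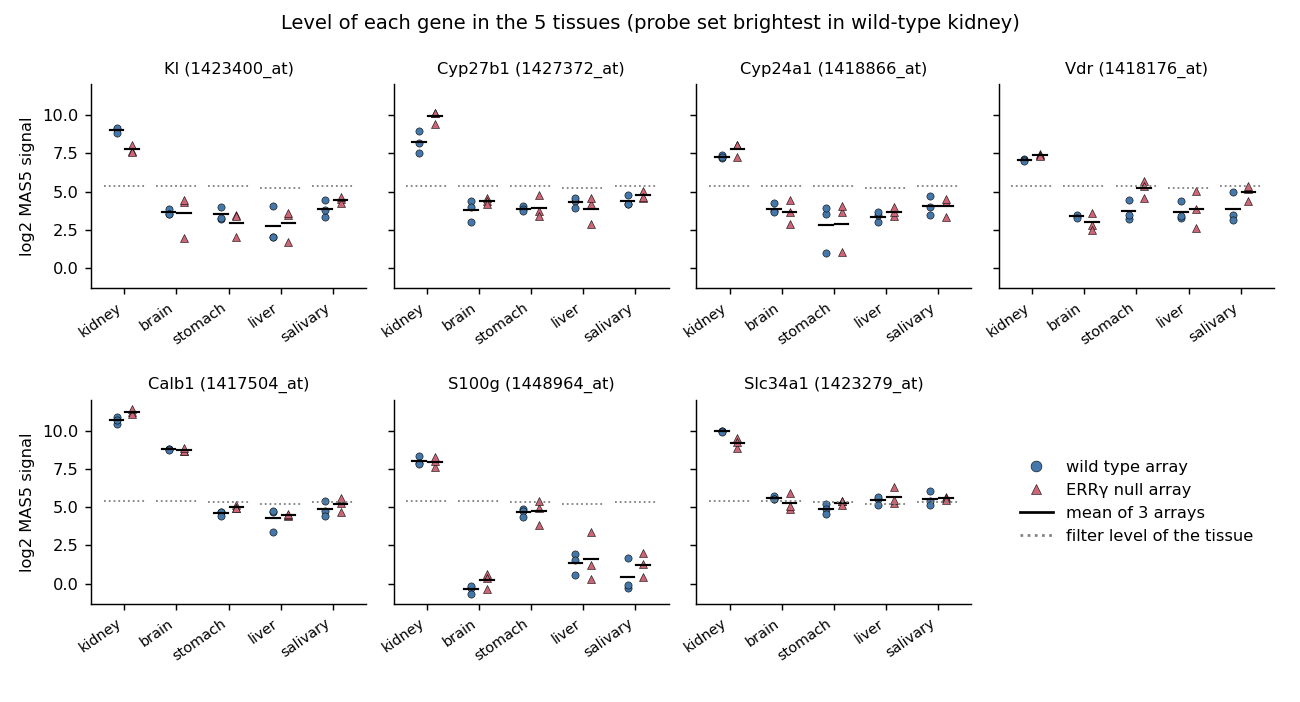
Log2 MAS5 signal of the probe set of each gene that was brightest in wild-type kidney, in 5 tissues, for each wild-type (circles) and null (triangles) array, with the mean of 3 arrays (bar) and the filter level of each tissue (dotted). Kidney lies above the other tissues in all 7 panels, brain is second for Calb1 (8.79 in wild-type) and stomach for S100g (4.67).

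Outside kidney 4 tests of members were possible, and 0 passed in limma or had an unadjusted p under 0.05. Calb1 at 1417504_at read 8.80, 8.79 and 8.77 in wild-type replicates 1 to 3 and 8.68, 8.71 and 8.91 in the null replicates of brain. These values overlapped, and the difference of -0.02 had a 95% interval of -0.26 to 0.22 (limma adjusted p = 0.961). In brain 0% of the 13577 tested probe sets passed in limma, and 10.5% had an unadjusted p under 0.05. Slc34a1 was tested at low signal in brain (-0.29, limma adjusted p = 0.733), liver (0.21, adjusted p = 0.757) and salivary tissue (0.03, adjusted p = 0.973). In stomach, liver and salivary tissue 23.5%, 6.93% and 8.22% of all tested probe sets passed. No member probe set reached the filter level in stomach.

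Under that level, Vdr was higher in null stomach at both probe sets. 1418175_at read 2.91, 3.92 and 4.27 in wild-type replicates 1 to 3 and 5.09, 4.93 and 5.46 in the null replicates of stomach, and 1418176_at read 4.46, 3.17 and 3.45 against 5.72, 4.55 and 5.38. Null and wild-type arrays did not overlap at either, as was so for 42.8% of the probe sets tested in stomach. With no filter the differences were 1.46 (limma adjusted p = 0.0469) and 1.52 (limma adjusted p = 0.0598). The gap between 3′ and 5′ Gapdh probe sets was 1.18 larger in null than in wild-type stomach, and its part in these values was not tested. Alb, a hepatocyte marker, read 5.93, 10.25 and 11.90 in wild-type replicates 1 to 3 of stomach. In the null replicates it read 6.81, 6.19 and 7.06, and its bearing on the stomach values was not tested either.

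Whether the kidney differences stood apart from those of the other tissues was tested in 1 fit of all 30 arrays, as the kidney difference minus the mean difference of the other 4 tissues. It was -1.30 ± 0.65 for Kl (SE, limma adjusted p = 0.733), 1.54 ± 0.46 for Cyp27b1 (adjusted p = 0.316), 1.19 ± 0.72 for Calb1 1448738_at (adjusted p = 0.810) and -0.82 ± 0.31 for Slc34a1 (adjusted p = 0.566). Of 9 member probe sets 0 passed in limma at an adjusted p under 0.05, where 0.114% of 16690 probe sets did. An unadjusted p under 0.05 was reached by 2 of the 9, and the share of all probe sets at that level was not taken. In every tissue Xist was low only in wild-type replicate 3 and null replicate 1. Arrays of 1 genotype and number may thus come from the same animals in all tissues, which was not tested. The fit took all arrays as independent. Values outside kidney lay mostly under the filter level and were spread widely there. With values below 4 set to 4, the first 3 passed: Kl (-1.39, limma adjusted p = 0.00013), Cyp27b1 (1.49, adjusted p = 0.0356) and Calb1 1448738_at (1.06, adjusted p = 0.00381). With a pseudocount of 16 added to linear signals they passed too, at -1.25, 1.54 and 0.90 (limma adjusted p = 0.0172, 0.0122 and 0.0388). Both settings narrow the spread of low signals, against which the test measures a difference. They also shrink differences between low signals outside kidney, and the floor removes those between values under 4. These 3 probe sets passed the filter through kidney alone, so their passes here are given as a description. Outside kidney the median was 3.55 for Kl, 4.21 for Cyp27b1 and 2.55 for Calb1 1448738_at. The call of a difference from the other tissues thus depends on how low signals are treated.

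Over the 30 arrays, the genes whose signal followed each member most closely were looked up by Pearson's r, as a description: most of the variation is that between kidney and the rest. For Kl they were Rab3ip (r = 0.94), Septin4 (0.93) and Lrp2 (0.93). For Cyp27b1 they were Acsm2 (r = 0.95), Slc12a1 (0.95) and Fxyd4 (0.95), and for Cyp24a1 Mep1a, Slc12a3 and Slc12a1 (r = 0.91 each). For Vdr they were Sox17 (r = 0.91), Wfdc15b (0.89) and a probe set of Acsm2 (0.89). For Calb1 they were Lhx1 (r = 0.97), Foxc2 (0.97) and Slc19a1 (0.93), for S100g Pdzk1ip1 (r = 0.97), Gsta2 (0.96) and Hmga2 (0.94), and for Slc34a1 Slc12a3 (r = 0.98), Slc12a1 (0.98) and Scin (0.98). None of these neighbours passed the test in kidney: those of Kl differed by 0.01 (Rab3ip, limma adjusted p = 0.979), -0.43 (Septin4, adjusted p = 0.158) and -0.36 (Lrp2, adjusted p = 0.150), and those of Cyp27b1 by 0.19 to 0.20 (adjusted p between 0.373 and 0.554).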

How the data were processed

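The deposited table holds log2 signals, made with MAS5 per the submitters' processing notes; the MAS5 version and its scaling are not stated in the labels. Base 2 was settled from the values: the 2% trimmed mean of the linear values then lay between 149.988 and 150.008 on all arrays. Values were used as given. Of 22690 probe sets 64 controls were set aside. Symbols came from the platform annotation: 20380 probe sets had 1 symbol, 691 several and 1555 none.

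Per tissue, probe sets at or above the tissue's 40th percentile of the mean of 6 arrays entered limma 3.58.1 in R 4.3.3 (lmFit, eBayes with a mean-variance trend), with Benjamini-Hochberg adjustment over all tested and a threshold of 0.05. Tissue contrasts used wild-type arrays or all 30 arrays and those probe sets that entered the test of 1 or more tissues. These arrays were taken as independent. The steps were tested on simulated data. Alternatives were other value scales, filters, scalings, covariates, weights, thresholds, 1 fit of all arrays, a replicate block and leaving out arrays.

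A gene in a list was represented by its probe set brightest in kidney. Named were all members, list genes that passed, and 3 neighbours per member by correlation. The phosphate, vitamin D and calcium lists added up to 3 genes each by size of difference. The other lists added up to 3 each by level, up to 5 with those that passed. Fgf23, Klk1, Irx1, Cyp11a1, Ucp1 and Xist were named outside these rules. Any further gene is marked in the text as chosen afterwards. The members, lists and rules were chosen with earlier results of these data known. Promoters are from RefSeq (GRCm38.p6), matched for 5 of 7 members.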

Additional observations from a re-analysis of the deposited data

Results flagged for a closer look

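The dimmer Calb1 probe set, 1448738_at, passed a test of whether the null minus wild-type difference varied between the 5 tissues. Over all 30 arrays F was 6.04 (limma adjusted p = 0.0173), and 15.3% of probe sets passed this test. The call was lost with replicate 2 or replicate 3 left out of all groups. With no filter the difference passed in no single tissue (limma adjusted p between 0.0731 and 0.627). The difference was 0.92 in kidney, 1.39 in stomach, 0.84 in salivary tissue, -0.91 in brain and -2.41 in liver, where the null arrays read 2.13, -0.09 and -1.70. Outside kidney all its group means lay under the filter level. The bright Calb1 probe set gave 0.55, 0.42, 0.33, -0.02 and 0.24 in the same order and did not pass (limma adjusted p = 0.768).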

How the results depend on the processing

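Over 22 results for single member probe sets and 311 alternatives, 278 kept their side of the threshold, 10 came to pass, 23 ceased to pass and 0 reversed a call. In kidney 3 member probe sets passed. With Ucp1 as a covariate 3 passed too, which says nothing of brown fat, since Ucp1 was at background. The count was 5 at adjusted p under 0.1, 0 under 0.01, 1 with no filter, 1 without the mean-variance trend, 1 with the Gapdh difference as a covariate and 0 in 1 fit of all 30 arrays, and it ranged from 0 to 4 with 1 array left out. It was 0 without wild-type replicate 2 and 4 without null replicate 2. The 106 probe sets that passed in kidney were 305 under 0.1, 4 under 0.01, 26 with no filter, 160 with equal medians, 37 in the fit of all arrays, 20 without the trend, 41 with the Gapdh covariate, and 4 (without wild-type replicate 2) to 295 (without null replicate 2) with 1 array left out. For the kidney difference against other tissues 0 member probe sets passed, but 3 with the floor of 4 and 3 with the pseudocount of 16. Both settings narrow the spread of low signals and shrink differences between them. For the test between tissues 1 passed, but 3 and 3 in those settings, and 0 to 1 with 1 replicate number left out of all groups (0 without replicate 2 and 0 without replicate 3). The cause of these changes was not tested.

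Same-numbered kidney arrays of the 2 genotypes correlated in their deviations from the group means by -0.15, 0.06 and -0.06, so the numbers are not taken to pair the samples. With the replicate number as a block 2 member probe sets passed in kidney, Kl (adjusted p = 0.00636) and Calb1 1448738_at (adjusted p = 0.0378), and Cyp27b1 did not (limma adjusted p = 0.0579). Cyp27b1 also missed the threshold with quantile normalization (adjusted p = 0.0507), no filter (adjusted p = 0.119), no trend (adjusted p = 0.111), the Gapdh covariate (adjusted p = 0.0688) and all 30 arrays (adjusted p = 0.0872). The 3 arrays per group, and signals under the filter level outside kidney, limit what can be told apart.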

Other observations

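Among markers of other cells of the kidney and blood, the summed level was higher in null kidney without overlap for podocytes (11.16 to 11.18 in wild-type, 11.25 to 11.51 in null arrays) and erythroid cells (7.60 to 7.82 against 7.86 to 8.12). It overlapped for leukocytes (10.36 to 10.50 against 10.30 to 10.57). Of these 3 lists 6, 2 and 7 genes were tested and 0 passed in limma, with 1, 1 and 0 at an unadjusted p under 0.05. The brightest gene of the erythroid list, Alas2, differed by 0.39 (limma adjusted p = 0.271). The next by level, Slc4a1, differed by -0.32 (limma adjusted p = 0.625), and Hba-a1, under the filter level, by -0.04. The erythroid sum without Alas2 was not taken. Of 7 tested markers of nephron progenitors and stroma 0 passed in limma (3 at an unadjusted p under 0.05). The summed level of that list was also higher in null kidney without overlap, by a narrow margin (10.278 to 10.286 against 10.291 to 10.365). None of the few tested markers of neurons, salivary and pancreatic tissue or gastric epithelium passed.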
